A study of Bos taurus with 4 samples.

Results

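The RNAs described here are the fragments of mitochondrial tRNAs in the small RNA of bovine oocytes. They were chosen by name: in the annotation of each library, a tRNA fragment that carries an Ensembl gene or transcript identifier in place of a nuclear tRNA number comes from a mitochondrial tRNA gene. Of 38611 names in the 4 libraries, 88 met this rule. They belong to 22 genes and 6 fragment types, and 3197 of the 2468643 distinct sequences carry one of them. Of these sequences 177 also carry another name, and such reads were divided equally among the names.

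The study compared small RNA of Bos taurus oocytes at the germinal vesicle (GV) stage, the immature oocyte arrested in meiotic prophase, between 2 libraries of input RNA and 2 of the RNA that came down with an antibody against Tdrkh (TDRKH IP). The inputs carry the label none for antibody, and no precipitation with a control antibody was analysed here, so antibody-specific recovery was not measured. A lower share in the IPs can come from weaker recovery or from dilution by other RNAs, and these cannot be told apart. Nothing in the labels ties a replicate to a pool of oocytes of its own, and the p-values therefore reflect library-to-library spread only, which may be technical.

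Mitochondrial tRNAs are transcribed from both strands of the mitochondrial genome in long precursors, punctuate the coding and ribosomal RNA genes there, and are cut out at both ends before a CCA tail is added at the 3′ end. They decode the few proteins that mitochondria make, and several lack parts of the usual cloverleaf. TDRKH is a Tudor-domain protein of the outer mitochondrial membrane that binds PIWI proteins, which carry the piRNAs of germ cells, so it sits on the organelle in which these tRNAs are made.

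No table at hand pairs the Ensembl identifiers with tRNA names, so each gene was named from its own reads: a stem of 5 base pairs, of which at least 4 had to match, around a loop of 7 bases whose middle triplet is the anticodon. This named 20 of the 22 genes. No stem-loop was found in the reads of the other two, and the triplets of tRNA-Asn and tRNA-Glu were found in no gene. The name tRNA-Thr (ENSBTAG00000043572) rests on 2 reads that hold the loop, as do tRNA-Ala and tRNA-Gln. tRNA-Cys, tRNA-Gly, tRNA-Val and tRNA-Gln rest on overlapping reads with no single read across the stem-loop, and tRNA-Val, tRNA-Trp and tRNA-Ser(AGY) on 4 matched pairs. In tRNA-Pro a second stem-loop with the tRNA-Trp triplet matched at fewer pairs.

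Leading input sequences of their genes show 3 kinds of fragment. The first set is shown because its 3 sequences led both the inputs and the IPs; they are 3′ fragments of tRNA-Thr that end in the added CCA, in capitals, and differ only in where they begin.
tRNA-Thr, 19 nt: taacctccctaagactCCA
tRNA-Thr, 20 nt: ctaacctccctaagactCCA
tRNA-Thr, 18 nt: aacctccctaagactCCA

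The leading sequences of tRNA-Cys and tRNA-Trp are of the same kind, again with the CCA in capitals.
tRNA-Cys: attctgccggggcttCCA
tRNA-Trp: tttacttaattcctgCCA

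Fragments from the 5′ end of a tRNA are shown for 3 genes because they end on a base of the anticodon; the capitals mark the bases of the triplet that the fragment still holds.
tRNA-Ser(AGY): gaaaaagtatgcaagaactGC
tRNA-Met: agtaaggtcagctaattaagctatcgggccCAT
tRNA-Ile: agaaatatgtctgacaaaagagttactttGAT

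Fragments that the annotation puts with neither end are shown for the gene with the second most reads and the gene with the smallest fall. They hold no triplet and no CCA tail, so no base is in capitals. Counted from 1 at the first triplet base, the tRNA-Ser(UCN) fragment begins at position -29. No placed read of that gene begins earlier, and the 5′ tRNA-halves of tRNA-Met begin at the same position.
tRNA-Lys: gttagagattgagagccat
tRNA-Ser(UCN): gagagagacatagaggtt

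Mitochondrial tRNA fragments made up 0.988% of listed reads in input 1 (Wilson 95% interval 0.969 to 1.01%) and 0.950% in input 2 (0.934 to 0.967%). They made up 0.00493% in TDRKH IP 1 (0.00454 to 0.00537%) and 0.00540% in TDRKH IP 2 (0.00499 to 0.00586%). These shares are 10662, 12864, 550 and 598 reads, and the intervals cover counting error only, since PCR copies are in the counts. In reads-per-million (RPM) of the listed reads, the class fell from 9690 ± 267 (SD, n = 2) to 51.7 ± 3.33 (SD, n = 2), which is 187-fold. Both IPs lay far below both inputs, and edgeR's quasi-likelihood test gave a log2 change of -7.55 ± 0.07 (SE) with a Benjamini-Hochberg adjusted p of 2.90e-09 over all names, of which 57.8% were lower and 16.8% higher.

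The libraries held 1079364 and 1354003 listed reads in the inputs and 11138905 and 11060320 in the IPs. Reads of piRNA clusters took 88.8% and 87.8% of the inputs and 96.9% and 96.8% of the IPs, and microRNAs took 1.77% and 1.82% against 0.0603% and 0.0735%. Scaled to microRNA reads in place of all listed reads, the fall of the class was 2.80 on the log2 scale: it was lower in the IPs on this scale too. MicroRNAs of cumulus and granulosa cells, which surround the oocyte, moved with the class: the 4 listed ones summed to 236 and 283 RPM in the inputs and to 1.26 and 2.71 RPM in the IPs, where miR-132 was at 0. The microRNAs of blood (3 listed) were at 0 in every library, those of leukocytes (3 listed) summed to 15.8 and 10.3 RPM in the inputs and 0 in the IPs, and miR-122 of liver stood at 435 and 335 against 1.71 and 2.35 RPM. The part of other cells in the result was not tested.

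All 22 genes were tested and all 22 were lower in the IPs at an adjusted p below 0.05, beside 58.0% of all features lower and 16.7% higher in the same fit. Their median log2 change was -7.24, with a range from -8.16 to -5.32. In none of the 22 genes did an IP reach the level of an input, and how many of all features share this was not counted. The low-count filter was passed through the inputs, where these RNAs are high, so a gene with few IP reads had to differ. Neither count by itself is read further. With microRNA reads as library size 20 of the 22 were lower, beside 484 of all 5380 features lower and 3279 higher. Levels of different genes are set side by side in RPM, not per length, since the files give no gene lengths.

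**Figure D1:**
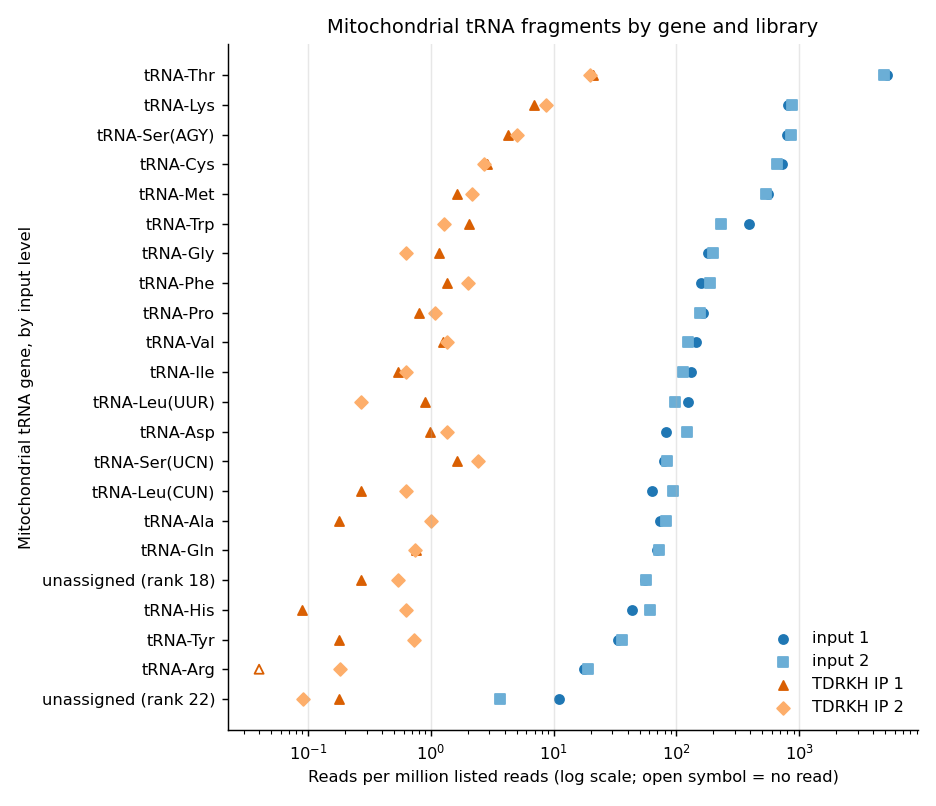
Reads-per-million of listed reads (log axis) of each mitochondrial tRNA gene, ordered by its mean in the inputs; each symbol is 1 library and an open symbol marks no read. The inputs lie to the right of the IPs in every gene, tRNA-Thr is the highest in all 4 libraries, and tRNA-Ser(UCN) shows one of the smallest gaps.

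tRNA-Thr, which decodes threonine codons, was the most abundant in every library. It stood at 5179 and 4859 RPM in the inputs and at 21.1 and 19.8 RPM in the IPs, a 245-fold difference (log2 change -7.93 ± 0.07 SE, adjusted p = 3.14e-09 by edgeR). Its share of mitochondrial tRNA reads was 52.4% and 51.1% in the inputs and 42.8% and 36.7% in the IPs, so it was the leading gene on both sides but took less of the class in each IP. The 19 nt sequence shown above gave 1186 and 1439 RPM in the inputs and 7.18 and 6.42 RPM in the IPs. The 20 nt form gave 762 and 867 against 4.04 and 3.44 RPM, and the 18 nt form 697 and 720 against 3.77 and 2.53 RPM. The order of the 3 forms was the same in all 4 libraries, and together they were 26.4%, 31.5%, 29.9% and 22.5% of the mitochondrial tRNA reads of input 1, input 2, IP 1 and IP 2, values that overlap between the groups.

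tRNA-Lys, for lysine codons, was next, at 807 and 868 RPM in the inputs and 6.91 and 8.68 RPM in the IPs (log2 change -6.75 ± 0.10 SE). Its reads lie mostly between the anticodon and the 3′ end without reaching the latter, and the leading one, shown above, stood at 100 and 130 against 1.71 and 1.27 RPM. The share of the class held by tRNA-Lys was 8.17% and 9.13% in the inputs and 14% and 16.1% in the IPs, higher in both IPs. Within tRNA-Lys the CCA fragments were 15.4% and 18.5% of its reads in the inputs but 5.19% and 3.12% in the IPs, where the gene had 77 and 96 reads. The 2 groups do not overlap in this, and the exact permutation test of 2 against 2 libraries cannot give a p below 0.333.

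tRNA-Ser(AGY), the serine tRNA that lacks the D arm, stood at 798 and 852 RPM in the inputs and 4.22 and 5.06 RPM in the IPs (log2 change -7.47 ± 0.10 SE). Its leading 21 nt fragment gave 359 and 403 RPM against 2.69 and 2.98 RPM and was 46.3% of the gene's input reads. The gene's share of the class was 8.08% and 8.97% in the inputs and 8.55% and 9.37% in the IPs, which overlap.

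tRNA-Cys stood at 721 and 654 RPM in the inputs and 2.87 and 2.71 RPM in the IPs, and tRNA-Met, which serves both initiation and elongation in mitochondria, at 559 and 538 against 1.62 and 2.17 RPM. tRNA-Met had the lowest log2 change of the 22, -8.16 (SE 0.12, adjusted p = 1.90e-08 by edgeR). This place rests on both IPs: without IP 1 tRNA-Leu(UUR) was lowest, at -8.52, on 3 IP reads, and without IP 2 the lowest was tRNA-Arg, which had no read in IP 1. Its leading sequence, the 33 nt tRNA-half shown above, gave 131 and 156 reads in the inputs and 0 and 1 in the IPs. tRNA-Trp was the one gene of these whose inputs differed clearly, at 387 and 229 RPM against 2.06 and 1.27 RPM in the IPs. Its fall, by 7.49, has an SE of 0.33, above that of the 5 more abundant genes.

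The next 4 genes by input level were tRNA-Gly, tRNA-Phe, tRNA-Pro and tRNA-Val. tRNA-Gly gave 181 and 197 RPM in the inputs against 1.17 and 0.633 RPM. tRNA-Phe, the first gene after the control region of the mitochondrial genome, gave 157 and 186 against 1.35 and 1.99 RPM. tRNA-Pro gave 165 and 155 against 0.808 and 1.08 RPM, and tRNA-Val, which lies between the ribosomal RNA genes, 143 and 124 against 1.26 and 1.36 RPM. Neighbours in this order do not all differ beyond their spread: the inputs of tRNA-Lys and tRNA-Ser(AGY) overlap, as do those of tRNA-Gly and tRNA-Phe, and those of tRNA-Phe and tRNA-Pro.

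tRNA-Ser(UCN) (ENSBTAG00000043545), the other serine tRNA, had the smallest fall in the fit of all 4 libraries. It stood at 78.8 and 84.2 RPM in the inputs and at 1.62 and 2.44 RPM in the IPs, which is 40.2-fold (log2 change -5.32 ± 0.22 SE, adjusted p = 1.38e-06 by edgeR). The unnamed gene with the fewest input reads lay within its error of this, at -5.52 ± 0.80 (SE) on 3 IP reads, and without IP 2 it had the smaller fall (-5.15 against -5.63). Its share of the class was 0.797% and 0.886% in the inputs and 3.28% and 4.52% in the IPs, on 85, 114, 18 and 27 reads. It ranked 14th by its mean level in the inputs, but had as many reads as tRNA-Met in IP 1 and more than tRNA-Met in IP 2. The sequence shown above gave 11 and 19 reads in the inputs and 3 and 3 in the IPs, a small part of the gene's reads. Reads that begin at the same base were most of the gene's IP reads and a smaller part of its input reads. With microRNA reads as library size the fall of tRNA-Ser(UCN) was 0.59 with an adjusted p of 0.117 by edgeR. Its direction held and the call did not.

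The remaining genes lay below tRNA-Val in the inputs. The highest, tRNA-Ile, averaged 122 RPM and the lowest, one of the 2 genes without a name, 7.41 RPM. tRNA-Arg had no read in IP 1 and 2 in IP 2. The 5 genes with the most reads in each library held 81.6% and 81.8% of the class in the inputs and 75.3% and 71.7% in the IPs, so the reads were somewhat less concentrated in both IPs.

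To compare the genes with each other, the fit was repeated with the sum of mitochondrial tRNA reads as library size, an alternative added after the data were seen. On this scale 7 genes were higher and 2 lower at the same threshold. tRNA-Ser(UCN) was higher by 2.21 on the log2 scale (adjusted p = 1.57e-10 by edgeR) and tRNA-Lys by 0.80 (7.62e-05). Also higher were tRNA-Tyr, tRNA-Asp, tRNA-Gln, tRNA-Val and tRNA-Phe, by 1.27, 1.10, 0.93, 0.88 and 0.86. Of the input reads of tRNA-Gln sequences 53.0% went to other names in the equal division, so the value of tRNA-Gln rests on that division. tRNA-Thr was lower by a log2 change of -0.38 (0.0133) and tRNA-Met by one of -0.63 (0.0328). On this scale 87.8% of all features are higher and 0.539% lower, so the adjustment changes p very little and these values stand close to unadjusted ones. The divisor includes tRNA-Thr itself, at the shares given above.

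By place in the mitochondrial genome, the 8 genes on the light-strand side (Gln, Ala, Asn, Cys, Tyr, Ser(UCN), Glu and Pro, with the 2 unnamed genes counted here because only Asn and Glu were left) held 12.2% and 12% of the class in the inputs and 13.9% and 17.3% in the IPs. The log2 changes of these 8 had a median of -6.79 and those of the other 14 a median of -7.43. Both ranges, from -7.93 to -5.32 and from -8.16 to -6.43, overlap over most of their length.

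The 6 fragment types are the annotation's own classes. A 3p-CCA-tRF ends in the CCA tail, and a 3p-tRF lies at the 3′ end but lacks the full CCA. A 5p-tRF begins at the 5′ end, a 5p-tR-half or 3p-tR-half is a longer fragment from either end, and misc-tRF holds the rest. A 3p-tRF can still hold part of the tail. In tRNA-Thr, counted from 1 at the first triplet base, CCA fragments ended at position 43. Its 3p-tRFs from position 25 to 42 had 150 and 139 reads in the inputs and 9 and 4 in the IPs. Other 3p-tRFs of this gene reached position 43 but were not classed as CCA fragments. Those from positions 24, 25 and 26 had 66, 133 and 76 reads in input 1. They had 66, 83 and 40 in input 2 and 0 in both IPs. In these libraries the mitochondrial tRNA-halves ran from 30 to 36 nt and the shorter 5′ and 3′ fragments from 18 to 29 nt. Both 18 and 36 nt are limits of the listed lengths. All 6 types were lower in the IPs, beside 57.8% of all features lower and 16.8% higher in that fit. The 5 types with IP reads had log2 changes from -8.53 to -7.01.

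CCA fragments gave 5189 and 5033 RPM in the inputs and 23.4 and 20.3 RPM in the IPs. They were 52.5% and 53.0% of the class in the inputs and 47.5% and 37.5% in the IPs. Miscellaneous fragments gave 2695 and 2693 RPM against 17.4 and 24.5 RPM, and their share was 27.3% and 28.3% in the inputs and 35.4% and 45.4% in the IPs. The shift from CCA to miscellaneous fragments was seen in both IPs and was larger in IP 2. Short 5′ fragments were 8.76% and 9.76% against 10% and 11.6%. Short 3′ fragments without the full CCA were 8.33% and 5.80% against 5.91% and 3.68%, which overlap.

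The 5′ tRNA-halves gave 294 and 288 RPM in the inputs and 0.584 and 0.995 RPM in the IPs. Their fall, by 8.53 on the log2 scale (SE 0.16, adjusted p = 3.96e-08 by edgeR), took their share from 2.98% and 3.04% of the class to 1.18% and 1.84%. The 3′ tRNA-halves had 12 and 10 reads in the inputs and none in the IPs. Against a floor of 3 counts over both IPs they were at least 68.5-fold lower. The longest length listed is 36 nt. In tRNA-Thr the CCA end lies at position 43, so a 3′ tRNA-half that begins right after the triplet is longer than that. Such fragments could not be listed, so the low count is no measure of them. With mitochondrial tRNA reads as library size, miscellaneous fragments were higher by 0.54 (adjusted p = 0.000659 by edgeR), and 5′ tRNA-halves, short 3′ fragments and CCA fragments had log2 changes of -1.02, -0.58 and -0.32, beside 88.0% of all features higher and 0.559% lower.

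**Figure D2:**
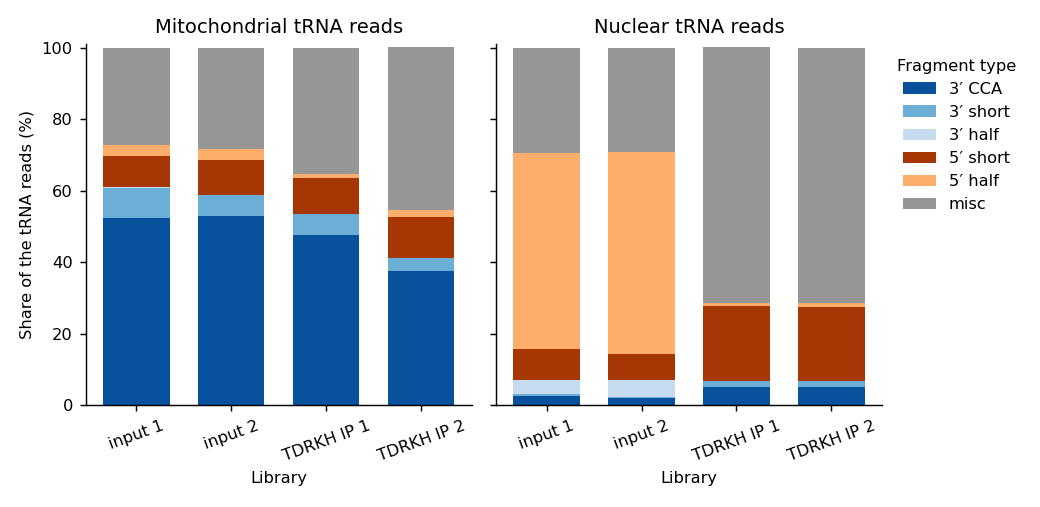
Share of mitochondrial (left) and nuclear (right) tRNA reads in each fragment type, by library; bars are stacked and start at 0. CCA fragments are 52.5% and 53.0% of mitochondrial tRNA reads in the inputs, while 5′ tRNA-halves lead the nuclear tRNA reads of the inputs at 54.6% and 56.6%.

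The mitochondrial fragments were of another make than those of nuclear tRNAs in the same libraries. In the inputs CCA fragments were 2.61% and 2.02% of nuclear tRNA reads, and 5′ tRNA-halves were 54.6% and 56.6%. Mitochondrial CCA reads outnumbered nuclear ones by 9.69 and 10.3 to 1 in the inputs, and this ratio was 0.0906 and 0.0886 in the IPs. For 5′ tRNA-halves the ratio was 0.0263 and 0.0211 in the inputs and 0.0142 and 0.0207 in the IPs, which lie close together beside the CCA ratios. Nuclear 5′ tRNA-halves went from 11185 and 13696 RPM to 41.0 and 48.0 RPM, whereas nuclear CCA fragments went only from 536 and 490 to 259 and 229 RPM.

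Over all types the ratio of mitochondrial to nuclear tRNA reads was 0.482 and 0.393 in the inputs and 0.00964 and 0.0118 in the IPs. The exact permutation test gave p = 0.333 (two-sided, n = 2 against 2), the smallest it can give. The ratio depends on how shared reads are treated: with only sequences of a single name it was 3.32 and 2.70 against 0.0195 and 0.0243, since most nuclear tRNA reads carry several names. Against mitochondrial rRNA, the other non-coding RNA of the organelle, the ratio was 13 and 10.1 in the inputs and 4.40 and 4.86 in the IPs, so fragments of both fell, the tRNA fragments further.

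**Figure D3:**
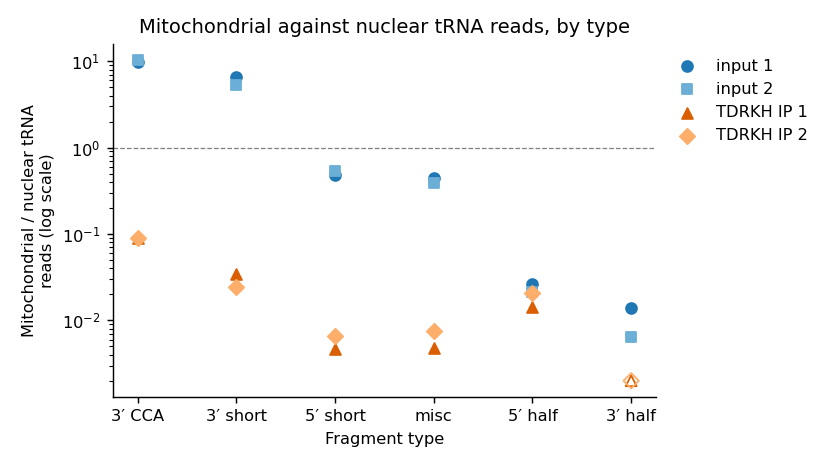
Ratio of mitochondrial to nuclear tRNA reads (log axis) in each fragment type; each symbol is 1 library, the dashed line marks equal reads, and open symbols at the foot mark IPs without a mitochondrial read of that type. CCA fragments stand at 9.69 and 10.3 in the inputs and near 0.09 in the IPs, while the 5′ tRNA-halves of the inputs and IPs lie close together.

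Reads of 18 to 21 nt were 86.9%, 86.2%, 88.0% and 83.0% of the class in input 1, input 2, IP 1 and IP 2. The commonest length was 19 nt in all 4 libraries, at 32.1% and 32.1% in the inputs and 30.6% and 27.1% in the IPs. Since 18 nt is the shortest length listed, at 26.3% and 23.8% of the inputs, shorter fragments may exist and were not analysed here. The longest length listed is 36 nt, so the same holds for longer fragments. The mean length was 20.1 and 20.2 nt in the inputs and 20 and 20.4 nt in the IPs, a difference smaller than the spread between the IPs.

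The lengths differed in detail. Reads of 21 nt were 9.79% and 10.3% of the class in the inputs and 14.6% and 16.5% in the IPs, higher in both. Reads of 30 to 36 nt were 4.16% and 4.08% in the inputs and 2.0% and 2.93% in the IPs, and those of 33 nt, the length of the tRNA-Met tRNA-half, 1.47% and 1.39% against 0.0910% and 0.335%. With tRNA-Thr left out the mean was 21.2 and 21.3 nt in the inputs and 20.5 and 20.8 nt in the IPs, so the genes other than tRNA-Thr gave shorter reads in both IPs.

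**Figure D4:**
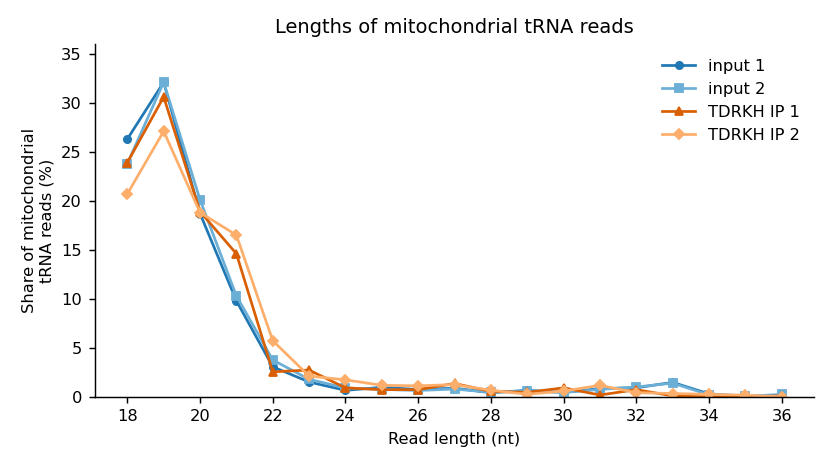
Share of mitochondrial tRNA reads at each length from 18 to 36 nt; each line is 1 library. All 4 lines peak at 19 nt, the IPs lie above the inputs at 21 nt, and the small rise of the inputs at 33 nt is lower in the IPs.

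Reads that end in the bases CCA, of any type, were 54.5% and 55.1% of the class in the inputs and 50.2% and 41.0% in the IPs (exact permutation p = 0.333, the smallest possible). Without tRNA-Thr the shares were 31.0% and 29% against 29.9% and 24.6%, which overlap, so the groups were no longer apart without that gene. Most piRNAs begin with T (U in RNA), but here A was the commonest first base, at 36.2% and 34.6% in the inputs and 35.2% and 40% in the IPs. T was first in 31.8% and 31.4% of reads in the inputs and 30.3% and 26.5% in the IPs.

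Many 5′ fragments ended at the anticodon. Of short 5′ fragments of tRNA-Ser(AGY) in the inputs, 94.0% ended on one of the 3 triplet bases, most often the second, and in the IPs 88.8% did. This gene has so short a 5′ arm that its cut at the anticodon gives 21 nt, a length at which it is counted as a tRF and not as a tRNA-half. Of the 5′ tRNA-halves of tRNA-Met 95% ended in the triplet in the inputs and 80.0% in the IPs, the latter on 10 reads. For tRNA-Ile the input share was 98.7%, with the third base the commonest end. The 5′ tRNA-halves of tRNA-Gln ended there less often, at 68.5% in the inputs and 27.3% of 5.5 reads in the IPs (a shared read counts in part). Over all placed 5′ tRNA-halves the shares were 92.8% in the inputs and 65.7% in the IPs, the latter on 17.5 reads. In tRNA-Cys, tRNA-Leu(UUR), tRNA-Leu(CUN) and tRNA-Gln none of the placed short 5′ fragments of the inputs ended there. Their commonest ends lay before the triplet. This was fixed by the class: its fragments were at most 29 nt, too short to reach the triplet from the 5′ ends of these genes. It is therefore no contrast to tRNA-Ser(AGY).

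On the 3′ side, miscellaneous and CCA fragments were compared in the 5 genes with at least 100 input reads of each. In tRNA-Thr the commonest last base of miscellaneous fragments (49.7% of them) was position 24, counted from 1 at the first triplet base, and the commonest first base of CCA fragments (46%) was position 25. tRNA-Lys had the same pair of positions, at 69.6% and 70.9%, so no base lay between the commonest ends of the 2 kinds of fragment in these genes. In tRNA-Phe they overlapped by a pair of bases, and in tRNA-Cys 21 bases lay between them. The miscellaneous fragments of tRNA-Val had no clear commonest end, the leading one holding 17.4% of 138 reads.

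**Figure D5:**
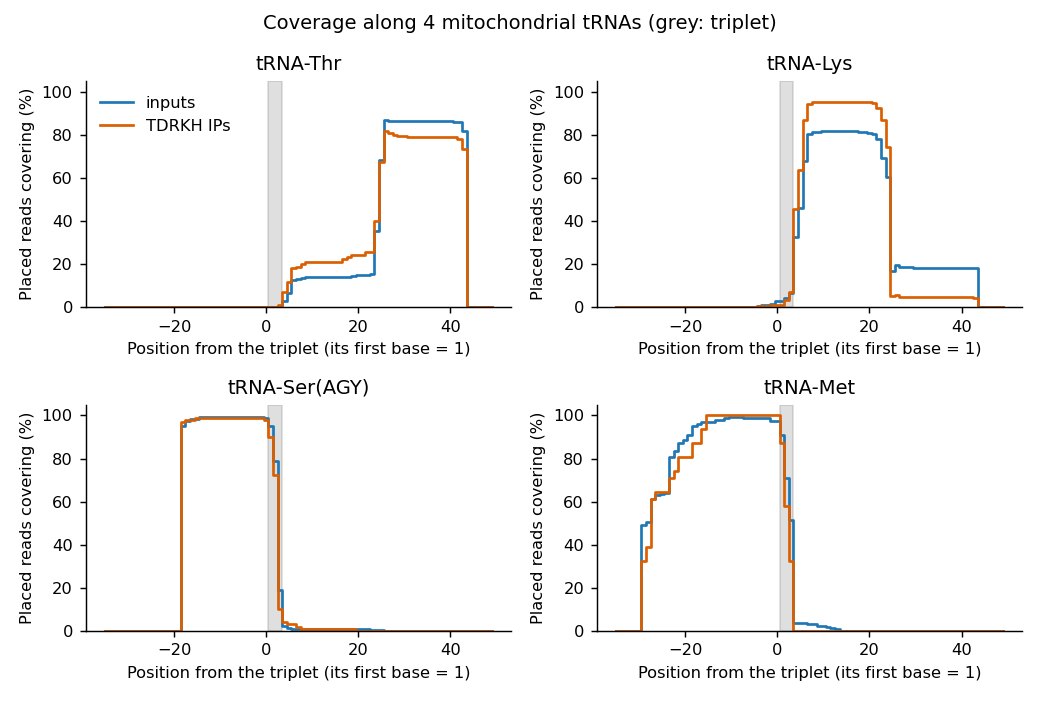
Share of the placed reads of 4 genes that cover each position, counted from 1 at the first base of the triplet (grey), over both inputs and over both IPs. tRNA-Thr reads lie at the 3′ end, tRNA-Lys reads mostly between the triplet and position 24, and tRNA-Ser(AGY) and placed tRNA-Met reads before the end of the triplet; the 3′ reads of tRNA-Met could not be placed, and 61.1% of its IP 1 reads and 83.3% of its IP 2 reads were.

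Of the 88 names, one for each gene and fragment type, 56 passed the filter and all 56 were lower in the IPs, beside 58.2% of all names lower and 16.7% higher. As with the genes, the filter was passed through the inputs, so the count is read no further. The 51 of them with IP reads had log2 changes from -8.93 to -5.32, and 5 had none. The other 32 had at most 10 reads over both inputs, and 29 of the 88 had no read in either IP. With mitochondrial tRNA reads as library size 5 names were lower and 8 higher, beside 0.591% and 87.3% of all names. The most abundant name of each type was the CCA fragment of tRNA-Thr (3918 and 3887 RPM in the inputs, 16.3 and 13.7 in the IPs), its short 3′ fragment (507 and 329 against 1.35 and 0.904), its 3′ tRNA-half (3.71 and 2.95 against none) and its miscellaneous fragments (750 and 639 against 3.41 and 5.20). For short 5′ fragments it was tRNA-Ser(AGY) (753 and 804 against 4.04 and 4.79) and for 5′ tRNA-halves tRNA-Met (235 and 225 against 0.269 and 0.633).

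Single sequences were tested at lower depth. Of 3197 sequences 88 reached 10 RPM in 2 libraries, and all 88 were lower in the IPs, beside 19.9% of all sequences tested lower and 41.9% higher. No member sequence reached 10 RPM in an IP, so these 88 were chosen by their input level. Their direction followed from that choice, and the count is read no further. Input libraries held 1974 and 1966 member sequences and the deeper IPs 202 and 224. Of the reads in the IPs 90.9% and 88.2% were of sequences also listed in an input, so few reads were of sequences seen in the IPs alone, and the depth there, 550 and 598 reads, limits what can be said of the rarer genes.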

How the data were processed

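The deposited files hold, per library, sequences of 18 to 36 nt with their raw read counts and the names of the unitas annotation; aligner, genome build and settings: not given in the sources used here. Per the labels' protocols, RNA was extracted with TRIZOL and sequenced single-end from NEXTflex V3 libraries. Counts were summed per name, with a sequence of several names divided equally, and rounded for the fit.

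Names were filtered with filterByExpr, and sequences had to reach 10 RPM in 2 libraries. IP was compared with input by edgeR 4.0.16 (R 4.3.3, quasi-likelihood test, listed reads as library size) over all names, with members merged per gene, type or class, and Benjamini-Hochberg adjusted p below 0.05 as the threshold. DESeq2 1.42.0 was an alternative. The test was checked on simulated data. Shares and ratios were compared by exact permutation of the 2 against 2 libraries, two-sided, whose smallest p is 0.333. Other steps used Python 3.11.15, numpy 2.4.6, pandas 2.3.3 and matplotlib 3.10.9. The floor for no reads was 3 counts over both IPs (0.135 RPM).

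Genes were named from reads joined by exact overlaps. That rule was revised after earlier versions left genes unnamed or gave 2 genes 1 name, so the names are less certain than the identifiers. Values in every library are given for the 10 genes with the most input reads, the genes with the highest and lowest log2 change and the 3 with the most IP reads, the leading name of each type, and the leading sequences; sequences of tRNA-Ile were added after the values were seen. Members and lists were chosen with earlier results of these data known.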

Additional observations from a re-analysis of the deposited data

How the results depend on the processing

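The 22 named genes, types and names kept a negative sign in all 283 refits under settings other than those added after seeing the data, and their call in 281; the exceptions were tRNA-Ser(UCN) with microRNA reads as library size, above, and 3′ tRNA-halves, without IP reads, with no filter (adjusted p = 0.0518 by edgeR). Library size set the amount: the median over the 22 genes was -7.24 with listed reads, -5.91 with TMM, -5.17 with DESeq2 and -2.54 with microRNA reads. Same-numbered libraries did not deviate together (correlation 0.004 over 5414 names). With the replicate number as a block the class changed by -7.55, and all 22 genes, 6 types, 56 names and 88 sequences kept their calls by count. In the same fits 3056 of 5380, 3037 of 5364, 3091 of 5414 and 2313 of 11786 features were lower. Higher were 861, 861, 862 and 4410. With filterByExpr over all sequences 175 member sequences were lower, beside 10283 of all 63296 sequences lower and 11275 higher.

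With mitochondrial tRNA reads as library size, chosen after seeing the data, 2 genes, 5 names and 3 types were lower. Signs turned for tRNA-Lys (0.80), tRNA-Ser(AGY) (0.07), tRNA-Trp (0.04), tRNA-Phe (0.86), tRNA-Pro (0.15), tRNA-Val (0.88), tRNA-Ser(UCN) (2.21), short 5′ fragments (0.22; of tRNA-Ser(AGY) 0.09) and miscellaneous fragments (0.54; of tRNA-Thr 0.22), by construction of a divisor that falls with them.

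The IP minus input difference of mean length, 0.0188 nt, turned to -0.0167 with single-name sequences and to -0.574 without tRNA-Thr; leaving out 1 library gave -0.152 (without IP 2) to 0.190 (without IP 1), with -0.0102 without input 1. That of CCA ends, -9.16 percentage points, ran from -13.8 (without IP 1) to -4.55 (without IP 2) and was 1.74 with each sequence counted once. The cause was not tested. The ratio of mitochondrial to nuclear tRNA reads differed by -0.427, by -2.99 with single names and by -0.0411 with full counts for every name. Leaving out 1 library, with the lone library of a group assumed to vary like the other group, gave a class change of -7.62 to -7.48. Without either input no member sequence passed the filter, so no test could be made.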

Other observations

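Sequences that differ by 1 base from a leading mitochondrial tRNA sequence, at the same length, were common in the inputs and rare in the IPs. They were counted for 10 sequences, the leading one of each of the 10 genes with the most input reads. These neighbours were 34.0% of the reads of sequence and neighbours together in input 1 (exact 95% interval 32.5 to 35.6%). In input 2 they were 21.3% (20.1 to 22.5%). In IP 1 they were 1.75% (0.363 to 5.04%, 3 of 171 reads) and in IP 2 0.685% (0.0173 to 3.76%, 1 of 146 reads). For the leading sequence of tRNA-Thr the shares were 36.9% and 23.2% against 1.23% and 1.39%, and without tRNA-Thr they were 30.2% and 18.5% against 2.22% and 0%.

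The same kind of share was measured for 10 leading sequences of each of the classes below. For nuclear tRNAs it was 43.6% and 39.6% in the inputs and 13.4% and 14.2% in the IPs, for piRNA clusters 41.1% and 35.5% against 22.9% and 26.0%, and for microRNAs 45.3% and 37.8% against 32.6% and 34.7%. The share was thus lower in both IPs than in both inputs for each of the 4 classes. Input 1 was above input 2 in each. The counting was chosen after seeing the data, the exact permutation test cannot give a p below 0.333 with 2 against 2 libraries, and listed neighbours include those that carry another name. Whether reads were filtered or collapsed alike in all 4 libraries is not stated in the labels, which limits what these shares can mean.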
